A study of Mus musculus with 11 samples.

Results

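Fibronectin and the integrins that read it were followed in fibroblasts of mouse back skin and of skin wounds. The set held 10 genes: *Fn1*, which encodes fibronectin, 6 integrin alpha subunit genes (*Itga1*, *Itga4*, *Itga5*, *Itga8*, *Itga11* and *Itgav*) and 3 beta subunit genes (*Itgb1*, *Itgb3* and *Itgb5*). The genes were picked with earlier results of these data known and then matched by gene symbol, and all 10 were found among the 47643 gene symbols of the expression table. The samples were fibroblasts from normal back skin (non-wounded skin, NS) or from excisional wounds taken 5 days after injury (5dw), isolated by fluorescence-activated sorting. Mice were either K14-Act transgenic animals, which overexpress activin A under the keratin 14 promoter, that is, from keratinocytes and not from the fibroblasts themselves, or their wild-type (WT) littermates. All mice were 9 to 12 weeks old and of a mixed background (50% CD-1, 50% C57Bl/6). Each library was made from RNA pooled from 3 mice, and there were 3 libraries each of WT NS, Act NS and WT 5dw but 2 of Act 5dw, because the authors had excluded replicate 2 of that group on quality. The sort kept live cells that were negative for CD45 and positive for CD140a (the product of *Pdgfra*), with CD3, CD11b and F4/80 as further negative markers. RNA input was 100 ng for back skin and 200 ng for wounds, so input and tissue cannot be told apart.

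Integrins are receptors made of 1 alpha and 1 beta subunit that span the membrane, bind the matrix outside and connect to actin inside through talin and focal adhesion proteins. *Itga5* pairs only with *Itgb1*, giving the classical fibronectin receptor, which binds the Arg-Gly-Asp motif and drives the assembly of fibronectin fibrils. *Itgav* pairs with several beta subunits, among them *Itgb3* and *Itgb5*, to give receptors for vitronectin, fibronectin and latent TGF-beta. *Itga4* and *Itga8* also pair with *Itgb1*, and *Itga1* and *Itga11* with *Itgb1* form collagen receptors. In healing skin, fibronectin is a main component of the provisional matrix on which fibroblasts move into the wound.

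In wounds, the genes of the fibronectin receptor pair rose together while *Fn1* itself did not pass the test on the deposited scale. *Itga5* was 2.08-fold higher in WT and 1.77-fold higher in Act by mean RPKM and *Itgb1* 1.41- and 1.59-fold higher, whereas *Itga8*, *Itga4* and *Itga11* were lower in every wound library than in every NS library. For *Itga11* the margin was narrow (20.4 RPKM in the lowest NS and 20.3 RPKM in the highest 5dw library). *Itga11* passed the test in WT but not in Act, and with libraries scaled by median ratios in neither. *Itgav*, *Itgb3*, *Itgb5* and *Itga1* did not separate between tissues. No member differed between Act and WT at the threshold in either tissue.

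Levels are given as RPKM, read numbers scaled by transcript length and by the mapped reads of the library, which corrects for length and so allows genes to be compared. For *Itga1*, *Itga5* and *Itgb5* the recovered reads were not whole with the GENCODE exon length, so the length the authors used is not known for these 3 genes, and their rank and share against other genes rest on it. Depth, recovered from the smallest RPKM steps, ranged from 18649327 to 39702122 mapped reads. Fibroblast markers summed to 13413 to 19051 RPKM in NS and to 23934 to 27223 RPKM in 5dw. Each of the 10 was at 29.6 RPKM or more in every library. In WT wounds 3 of them rose (*Col1a1*, *Col1a2* and *Col3a1*) and 5 fell, or 4 and 2 with median-ratio scaling. *Dcn* went from 3805–4825 RPKM in NS to 1699–2048 RPKM in 5dw, and *Pdgfra* from 49.8–65.3 to 29.6–37.3 RPKM. Keratinocyte markers (14 genes) summed to 1336 to 4906 RPKM in NS and to 137 to 1162 RPKM in 5dw. Of the 6 T cell markers, *Cd3e* rose from 2.94–33.9 RPKM in NS to 55.5–105 RPKM in 5dw, and *Trbc2* fell from 1.69–9.69 to 0.211–1.12 RPKM. The other 4 did not pass the filter: *Cd3d* was at 0–0.282 RPKM in NS and 0.258–0.643 RPKM in 5dw, *Cd3g* at 0–0.116 and 0.193–0.592 RPKM, *Trac* at 0–0.212 and 0.189–0.793 RPKM, and *Cd2* at 0.0238–0.0960 and 0.0148–0.0723 RPKM. Endothelial, macrophage and leukocyte, pericyte, and platelet markers summed to at most 40.6, 17.2, 24.5 and 9.18 RPKM, and the pan-leukocyte gene *Ptprc* was at or below 0.0498 RPKM. Within these lists single genes moved with the tissue in both genotypes: *Pecam1* rose from 3.39–5.66 to 11.5–14.0 RPKM, *Abcc9* from 2.50–4.85 to 5.53–11.1 RPKM and the platelet gene *Ppbp* from 0–0.116 to 1.98–4.19 RPKM (passing the filter only through 5dw), while *Tek* fell from 13.9–29.4 to 4.74–10.2 RPKM (not called in Act with median-ratio scaling) and *Cspg4* from 3.76–7.23 to 0.795–1.22 RPKM. Other platelet genes went the other way. *Itga2b* fell from 2.41–2.91 to 1.29–1.90 RPKM (not called in WT with median-ratio scaling). *Gp1ba*, which did not pass the filter, was at 0.292–0.641 RPKM in NS and 0.104–0.215 RPKM in 5dw. The leukocyte genes *Itgb2* (0.0548–0.143 RPKM in NS and 0.363–0.651 RPKM in 5dw) and *Fcgr1* (0.130–0.291 and 0.528–0.788 RPKM) did not pass the filter. The part of these cell types in the results was not tested. In bulk samples, fewer cells of a type and less RNA per cell cannot be told apart.

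In the GENCODE annotation of GRCm38, *Fn1* lies at chr1:71585520-71653200 and *Itga5* at chr15:103344286-103366763 on the minus strand, and *Itgb1* at chr8:128685654-128733200 on the plus strand. *Itga8* lies at chr2:12106632-12301922 on the minus strand and *Itga11* at chr9:62677826-62783982 on the plus strand. Promoters of the 4 members that passed the test in WT wounds on the deposited scale (*Itga11* did not in Act) are shown first. Of these, *Itga5* and *Itgb1* moved one way and *Itga8* and *Itga11* the other. RefSeq windows (GRCm38.p6) were found for 8 of the 10 members, all except *Fn1* and *Itgb3*. Each sequence ends at the base before the annotated start, runs 5′ to 3′ on the gene's strand and covers 250 bases. For *Itga11* the last bases, which another annotation places inside the gene, were left out, leaving 221. Capitals mark matches, on either strand, to TGANTCA (AP-1), CAGAC (the short Smad element), GGAATG (TEAD), GGGCGG (GC box) or a CArG box, the motif of serum response factor; none of the matches printed here overlap each other. The windows are chr15:103366792-103367041 (minus strand), chr8:128685404-128685653 (plus), chr2:12301945-12302194 (minus) and chr9:62677605-62677825 (plus).
Itga5: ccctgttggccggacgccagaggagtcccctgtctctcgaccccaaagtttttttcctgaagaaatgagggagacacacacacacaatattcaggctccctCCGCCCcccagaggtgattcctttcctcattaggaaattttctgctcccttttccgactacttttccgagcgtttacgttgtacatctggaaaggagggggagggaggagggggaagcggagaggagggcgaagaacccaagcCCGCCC
Itgb1: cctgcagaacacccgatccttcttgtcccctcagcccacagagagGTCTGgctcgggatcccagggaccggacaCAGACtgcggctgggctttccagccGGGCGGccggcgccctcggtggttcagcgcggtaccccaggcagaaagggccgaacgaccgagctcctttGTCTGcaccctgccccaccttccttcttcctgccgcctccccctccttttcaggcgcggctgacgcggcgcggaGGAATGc
Itga8: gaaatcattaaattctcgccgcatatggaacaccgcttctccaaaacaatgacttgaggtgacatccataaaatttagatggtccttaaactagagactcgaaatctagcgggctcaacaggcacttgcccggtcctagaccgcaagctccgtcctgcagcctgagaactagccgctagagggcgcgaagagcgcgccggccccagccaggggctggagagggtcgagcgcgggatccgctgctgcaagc
Itga11: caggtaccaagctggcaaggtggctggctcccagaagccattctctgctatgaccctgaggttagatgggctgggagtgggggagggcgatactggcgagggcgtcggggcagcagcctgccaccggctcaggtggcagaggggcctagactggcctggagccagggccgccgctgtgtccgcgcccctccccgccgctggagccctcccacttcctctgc

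The *Itga5* window held 2 GC boxes. The *Itgb1* window held 3 Smad elements, 1 GC box and 1 TEAD match. Neither the *Itga8* nor the *Itga11* window held a match to any of the 5 motifs. Of the windows not printed, *Itgb5* held 3 GC boxes, *Itga4* 1 GC box and 1 Smad element, *Itga1* 1 Smad element and *Itgav* no match. Among all 32851 RefSeq promoter windows, 32.7% held a GC box, 42.2% a Smad element, 12.6% a TEAD match, 6.75% an AP-1 match and 1.47% a CArG box. These are matches of letters within a short window and do not show binding.

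**Figure D1:**
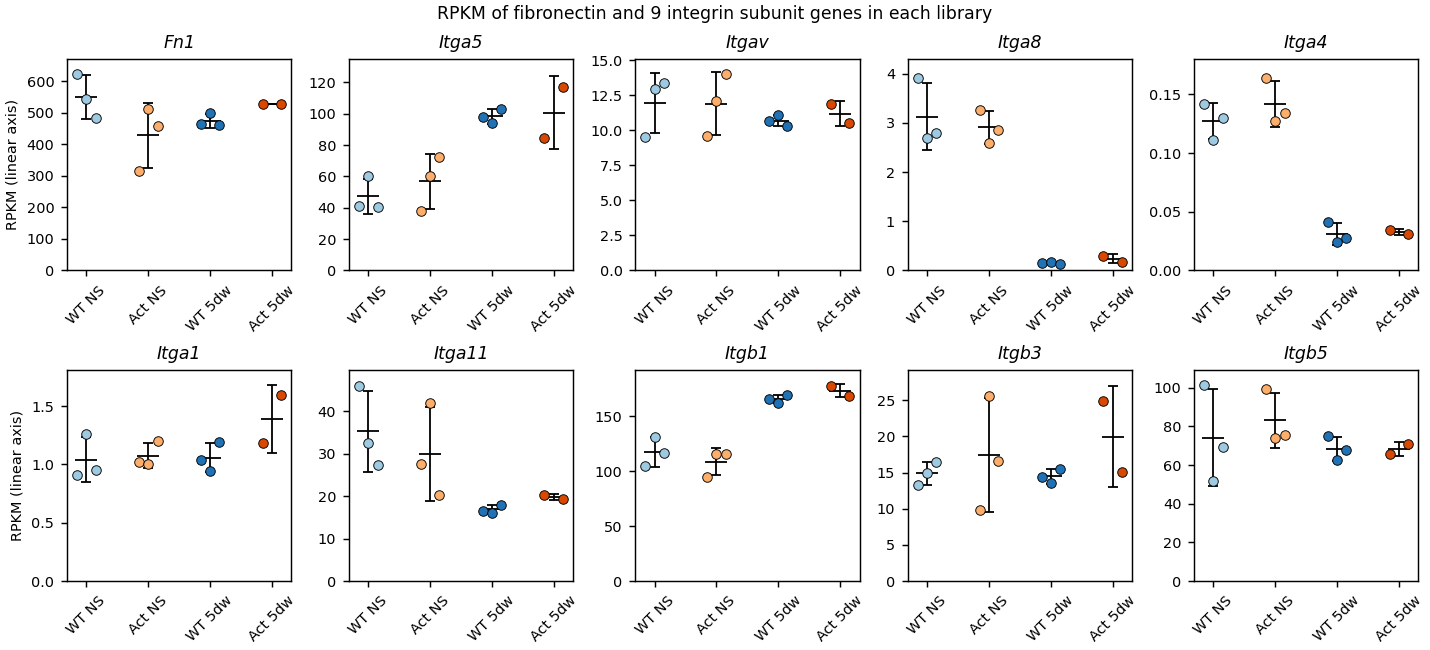
RPKM (linear axis from 0, a separate scale for each gene) of the 10 members in each library, grouped as WT NS, Act NS, WT 5dw and Act 5dw; points are libraries, horizontal marks the group mean and bars the SD. *Itga5* and *Itgb1* lie higher and *Itga8*, *Itga4* and *Itga11* lower in every 5dw library than in every NS library, while *Fn1*, *Itgav*, *Itgb3*, *Itgb5* and *Itga1* overlap.

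*Fn1* was the most abundant member in every library. In WT NS its level was 622, 542 and 482 RPKM (549 ± 70.4, SD, n = 3), and in WT 5dw it was 463, 498 and 459 RPKM (473 ± 21.6, n = 3). In Act NS it was 314, 512 and 459 RPKM (428 ± 103, n = 3), and in Act 5dw 527 and 528 RPKM (528 ± 0.777, n = 2). WT NS and WT 5dw overlapped, while both Act 5dw libraries lay above all Act NS and all WT 5dw libraries. By mean level *Fn1* ranked 75 of all gene symbols in NS and 69 in 5dw.

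Wounding was tested in each genotype by limma with a mean-variance trend on log2(RPKM + 0.5), fitted over all 11979 genes that reached 1 RPKM in at least 2 libraries, and genes with a Benjamini-Hochberg adjusted p (FDR) below 0.05 were called DEGs. Of the 10 members, 9 passed this filter and *Itga4* did not. The log2 fold change of *Fn1* was -0.21 (SE 0.18, adjusted p = 0.349) in WT and 0.33 (SE 0.20, adjusted p = 0.207) in Act. The median log2 fold change of all tested genes was -0.40 in WT and -0.31 in Act, so RPKM as deposited placed most genes lower in wounds. When libraries were scaled by median ratios instead, *Fn1* came to 0.25 in WT (adjusted p = 0.228) and to 0.69 in Act (adjusted p = 0.0121), that is, its direction flipped in WT and it was called in Act. On neither scale was the wounding effect on *Fn1* shown to differ between genotypes (interaction 0.54, SE 0.27, unadjusted p = 0.0762 in limma's test, adjusted p = 0.999, and scaled 0.44, adjusted p = 0.999).

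*Itga5* was the alpha subunit gene with the highest level in wounds. Its level was 41.2, 60.1 and 40.7 RPKM in WT NS (47.4 ± 11.1, SD, n = 3) and 98.1, 93.8 and 103 RPKM in WT 5dw (98.3 ± 4.59, n = 3). In Act it went from 37.9, 60.3 and 72.5 RPKM in NS (56.9 ± 17.5, n = 3) to 84.2 and 117 RPKM in 5dw (101 ± 23.3, n = 2). Every 5dw library lay above every NS library. The log2 fold change was 1.07 (SE 0.24, limma adjusted p = 0.00326) in WT and 0.85 (SE 0.27, adjusted p = 0.0239) in Act. Without Act 5dw replicate 3 the Act change was 0.61 and no longer called (adjusted p = 0.195). It was likewise not called without the filter on low values (adjusted p = 0.0527) or when only the 2 Act groups were fitted (adjusted p = 0.0672).

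*Itgb1*, the common partner of most alpha subunits in this set, rose in both genotypes. It was at 104, 131 and 117 RPKM in WT NS (117 ± 13.3, SD, n = 3) and at 166, 162 and 169 RPKM in WT 5dw (166 ± 3.63, n = 3). The Act values were 94.7, 116 and 116 RPKM in NS (109 ± 12.3, n = 3) and 177 and 169 RPKM in 5dw (173 ± 5.97, n = 2). The tissues did not overlap in either genotype. The log2 fold change was 0.50 (SE 0.13, limma adjusted p = 0.00789) in WT and 0.67 (SE 0.15, adjusted p = 0.00397) in Act, and with median-ratio scaling it was 0.95 and 1.03. Across the 11 libraries *Itga5* and *Itgb1* had a Pearson r of 0.91 on the log2 scale, which the tissue difference shared by both genes enters.

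*Itgav*, whose product pairs with those of *Itgb3* and *Itgb5*, overlapped between the tissues. It ranged from 9.50 to 13.4 RPKM in WT NS, 9.60 to 14.0 in Act NS, 10.3 to 11.1 in WT 5dw and 10.5 to 11.8 in Act 5dw. Its log2 fold change with wounding was -0.14 (95% interval -0.50 to 0.22) in WT and -0.07 (-0.47 to 0.33) in Act, and with median-ratio scaling 0.30 and 0.27, none of them called. *Itgb5* spanned 51.9 to 101 RPKM in WT NS, 74.2 to 99.5 in Act NS, 62.5 to 74.8 in WT 5dw and 65.9 to 70.7 in Act 5dw. Both Act 5dw libraries lay below all Act NS libraries, but the log2 fold change of -0.27 (95% interval -0.81 to 0.27) was not called, nor was that of -0.07 in WT. *Itgb3* was at 13.3 to 16.5 RPKM in WT NS, 13.5 to 15.5 in WT 5dw and 9.89 to 25.6 in Act NS, and at 24.9 and 15 RPKM in Act 5dw. Its log2 fold change was -0.04 (95% interval -0.67 to 0.59) in WT and 0.25 (-0.45 to 0.96) in Act. The direction of all 3 in WT, and of *Itgav* and *Itgb5* in Act, flipped with median-ratio scaling.

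*Itga8*, whose product with that of *Itgb1* binds nephronectin and fibronectin, showed the largest change among the tested members. It was at 3.91, 2.69 and 2.79 RPKM in WT NS (3.13 ± 0.677, SD, n = 3) and at 0.157, 0.172 and 0.133 RPKM in WT 5dw (0.154 ± 0.0196, n = 3). In Act it was at 3.27, 2.60 and 2.87 RPKM in NS (2.91 ± 0.338, n = 3) and at 0.304 and 0.175 RPKM in 5dw (0.239 ± 0.0914, n = 2). The lowest NS library was far above the highest 5dw library. These levels rested on 369 to 726 reads per NS library and 33 to 49 reads per 5dw library. The 5dw mean was 0.0492 of the NS mean in WT and 0.0822 in Act. The log2 fold change was -2.46 (SE 0.16, limma adjusted p = 1.48e-06) in WT and -2.21 (SE 0.17, adjusted p = 1.00e-05) in Act on the log2(RPKM + 0.5) scale, which understates changes of low genes. *Itga8* was under 1 RPKM in every 5dw library and so passed the filter only through NS, where it is high, which selects for a difference; its values are the description and its place in the counts of called members is no support. Tested with limma-voom on the recovered reads, a fit added after the data had been seen, the changes were -3.86 and -3.30. *Npnt*, which encodes nephronectin, was listed at 0.593 ± 0.0839 RPKM (SD, n = 3) in WT NS and 0.143 ± 0.0239 RPKM (n = 3) in WT 5dw and did not pass the filter.

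*Itga4*, whose product with that of *Itgb1* binds fibronectin and VCAM1 and is best known from leukocytes, was the lowest member. It was at 0.142, 0.111 and 0.130 RPKM in WT NS and at 0.0414, 0.0240 and 0.0277 RPKM in WT 5dw. In Act it was at 0.164, 0.128 and 0.134 RPKM in NS and at 0.0348 and 0.0307 RPKM in 5dw. These were 29 to 55 reads per NS library and 10 to 23 per 5dw library, and every 5dw library lay below every NS library. The exact 95% Poisson intervals, which cover counting error only, reached down to 0.0745 RPKM in NS and up to 0.0641 RPKM in 5dw. The fall was 4.26-fold on the mean log2 scale (two-sided exact permutation test of tissue within genotype, p = 0.005, the smallest that its 200 arrangements allow). Beside it, *Ptprc* was near 0 in both tissues, and *Cerkl*, which overlaps *Itga4* on the opposite strand, was at 0.0393 to 0.128 RPKM. Their part in the result was not tested.

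*Itga11* encodes the fibroblast receptor for fibrillar collagen. It was at 46.0, 32.6 and 27.4 RPKM in WT NS (35.4 ± 9.57, SD, n = 3) and at 16.6, 16.2 and 17.9 RPKM in WT 5dw (16.9 ± 0.915, n = 3). In Act it was at 27.5, 42.0 and 20.4 RPKM in NS (30.0 ± 11, n = 3) and at 20.3 and 19.3 RPKM in 5dw (19.8 ± 0.717, n = 2). All 5dw libraries lay below all NS libraries, although the lowest NS and the highest 5dw library, both Act, were nearly level. The log2 fold change was -1.01 (SE 0.24, limma adjusted p = 0.00493) in WT and -0.52 (SE 0.27, adjusted p = 0.140) in Act. With median-ratio scaling the WT change was -0.56 and not called (adjusted p = 0.0994), while in Act the gene was called with array weights (-0.83, adjusted p = 0.0195) and without Act NS replicate 3 (-0.76, adjusted p = 0.0340). The effects of wounding in WT and Act were not shown to differ (interaction 0.49, 95% interval -0.32 to 1.29).

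*Itga1*, the other collagen-binding subunit gene, was near 1 RPKM throughout. It ranged from 0.908 to 1.26 RPKM in WT NS, 1.01 to 1.20 in Act NS and 0.945 to 1.19 in WT 5dw, and was at 1.18 and 1.60 RPKM in Act 5dw. The log2 fold change was 0.02 in WT and 0.26 in Act and was not called. With median-ratio scaling the Act change was 0.51 (adjusted p = 0.0291), and with quantile normalization both were called (0.50 and 0.70). *Pelo*, a gene lying inside *Itga1* on the same strand, was at 1.10 to 3.89 RPKM, and reads could be split between them.

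**Figure D2:**
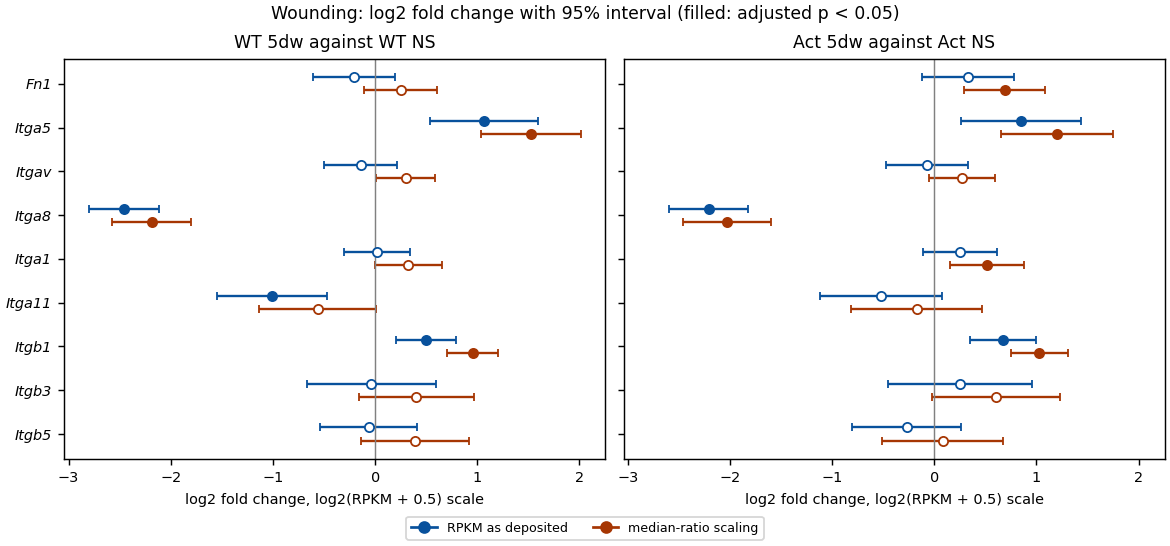
Log2 fold change of the 9 tested members with wounding (horizontal axis, log2(RPKM + 0.5) scale) in WT (left) and Act (right), with 95% intervals, for RPKM as deposited and after median-ratio scaling; filled points have an adjusted p below 0.05. *Itga5* and *Itgb1* lie right of 0 and *Itga8* left of 0, all filled, on both scales and in both genotypes, whereas *Itga11* in WT and *Fn1* and *Itga1* in Act are filled on 1 scale only.

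In total, 4 of the 9 tested members were DEGs between WT 5dw and WT NS, 2 higher (*Itga5*, *Itgb1*) and 2 lower (*Itga8*, *Itga11*), where 58.3% of all tested genes were called, 9.45% higher and 48.8% lower. Between Act 5dw and Act NS 3 members were called, *Itga5* and *Itgb1* higher and *Itga8* lower, against 45.6% of all genes, 9.04% higher and 36.5% lower. With median-ratio scaling 44.6% of genes were called in WT, split evenly (22.4% higher, 22.2% lower), and the members counted 3, 2 of them higher. In Act 40.7% were called (19.9% higher, 20.8% lower), and 5 members, 4 of them higher (*Fn1*, *Itga1*, *Itga5*, *Itgb1*). Without overlap between all NS and all 5dw libraries, *Itga5* and *Itgb1* were higher and *Itga8* and *Itga11* lower, against 8.45% and 38.9% of all tested genes. Between the same tissues 12 of the 14 keratinocyte markers fell in each genotype, and the part of keratinocyte RNA in the falls of members was not tested.

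The order of levels showed where the members traded places. In NS the order by mean was *Fn1*, *Itgb1*, *Itgb5*, *Itga5*, *Itga11*, *Itgb3*, *Itgav*, *Itga8*, *Itga1* and *Itga4*, and neighbours from *Itgb1* to *Itgav* overlapped across the 6 NS libraries. In 5dw *Itga5* stood above *Itgb5* and *Itga1* above *Itga8*, and among neighbours only *Itga11* and *Itgb3* overlapped. Among all gene symbols *Itga5* moved from rank 716 to 371 and *Itgb1* from 353 to 235, while *Itga8* moved from 7820 to 13834 and *Itga11* from 1138 to 1701.

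Shares within a library do not depend on how libraries are scaled to each other. *Itga5* made up 34.1% to 52.3% of the summed RPKM of all 19 alpha subunit rows in NS and 64.6% to 72.4% in 5dw, with no overlap. *Itga11* went from 14.7–38.0% to 11.9–15.6%, with an overlap of the lowest NS and the highest 5dw library. *Itga8* went from 1.85–3.47% to 0.0890–0.233% without overlap, whereas *Itgav* overlapped (7.86–12.3% and 6.51–9.08%). Of the 8 beta subunit rows *Itgb1* held 45.2–63.3% in NS and 64.4–66.9% in 5dw, and *Itgb5* 25.1–47.6% and 24.3–29.0%. When only the 3 beta members were summed, the shares of *Itgb1* overlapped between tissues. The summed alpha RPKM overlapped between tissues (94.4 to 141 in NS, 130 to 162 in 5dw), whereas the summed beta RPKM did not (207 to 231 and 242 to 271). The ratio of *Itga5* to *Itga11* was 0.896 to 3.56 in NS and 4.14 to 6.07 in 5dw, and that of *Fn1* to *Itga5* was 6.33 to 15.1 and 4.46 to 6.26, both without overlap. The ratio of *Itga5* to *Itgav* did not overlap either (3.04 to 5.16 and 7.11 to 11.1), whereas those of *Itga5* to *Itgb1*, the receptor pair (0.348 to 0.626 and 0.475 to 0.694), and of *Itgb1* to *Itgb5* (0.951 to 2.52 and 2.22 to 2.69) overlapped.

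**Figure D3:**
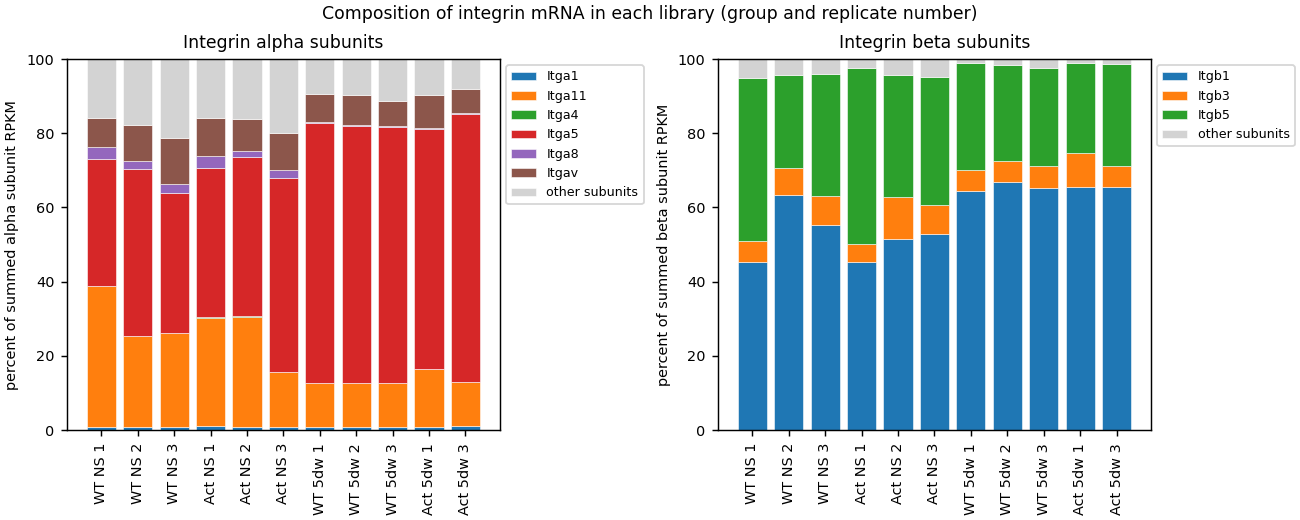
Percent of the summed RPKM of all alpha (left) and all beta (right) integrin subunit rows held by each member in each of the 11 libraries; grey is the sum of the other subunits. *Itga5* takes at least 64.6% of the alpha sum in each 5dw library and at most 52.3% in each NS library, and the *Itgb1* share is 64.4% to 66.9% in 5dw.

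The comparison of Act with WT asked whether keratinocyte-derived activin went with other levels of these genes. Between Act NS and WT NS none of the 9 members was called, none had an unadjusted limma p below 0.05, and 0.0167% of all genes were called. The largest difference was that of *Fn1*, with a log2 fold change of -0.38 (95% interval -0.78 to 0.02, unadjusted p = 0.0622 and adjusted p = 0.701 in limma). In each of the 3 same-numbered pairs of NS libraries *Fn1* was lower in Act (314 against 622, 512 against 542 and 459 against 482 RPKM), as was *Itgb1*. With the replicate number as a block the *Fn1* difference was again -0.38 and not called (unadjusted p = 0.0631 and adjusted p = 0.568 in limma). Between Act 5dw and WT 5dw no member was called, against 0.0334% of all genes, and none had an unadjusted limma p below 0.05. With limma-voom on recovered reads no member was called in either comparison, and 0 and 1 members had an unadjusted p below 0.05. The largest difference in wounds was that of *Itgb3*, 0.41 (95% interval -0.29 to 1.12), which rested on 1 high Act 5dw library. For *Itga5* the interval of the genotype difference was -0.29 to 0.76 in NS and -0.57 to 0.61 in 5dw, and for *Itgb1* -0.40 to 0.18 and -0.26 to 0.39. *Fn1*, *Itga8* and *Itga11* were higher in both Act 5dw libraries than in all 3 WT 5dw libraries, by 0.16, 0.17 and 0.22 on the log2 scale, in a comparison where 7.87% of all tested genes were higher without overlap. The interaction of wounding and genotype was called for no member (0% of all genes), with no unadjusted limma p below 0.05. The genotype comparisons were made on the same libraries as the wounding comparisons.

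**Figure D4:**
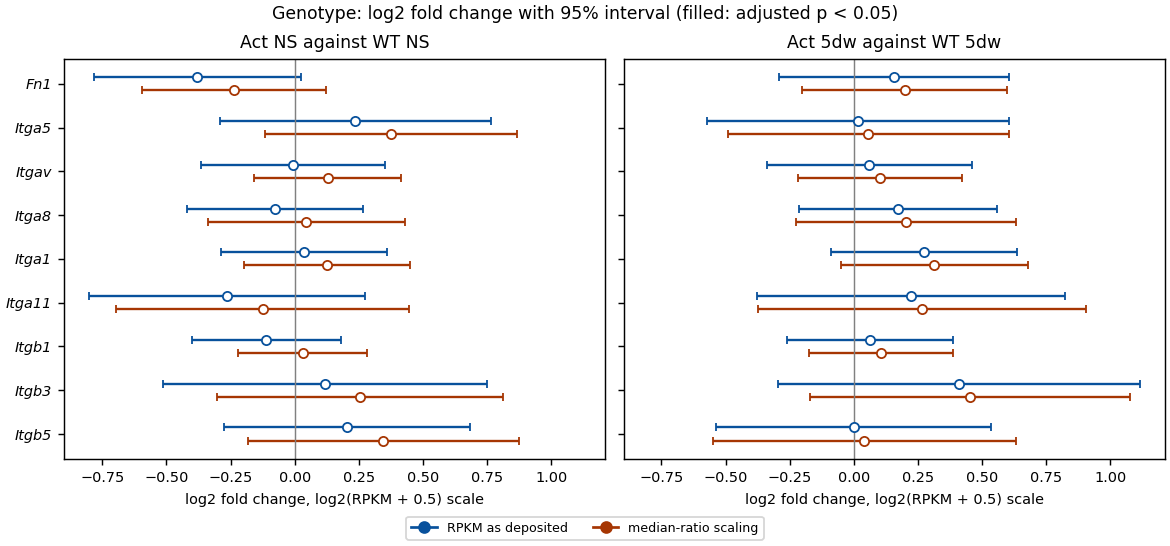
Log2 fold change of Act against WT (horizontal axis, log2(RPKM + 0.5) scale) for the 9 tested members in NS (left) and 5dw (right), with 95% intervals, for RPKM as deposited and after median-ratio scaling. All points are open (adjusted p of 0.05 or more) and all intervals include 0; the interval of *Itgb1* is the narrowest and that of *Itgb3* the widest in NS.

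Other integrin subunits gave a background for these members. Of 13 other alpha rows 7 were tested, and in WT wounds 2 rose and 5 fell, or 2 and 2 with median-ratio scaling. The falls include *Itga3* and *Itga6*, which passed the filter only through NS. The median log2 fold change was -0.48, against -0.40 for all genes, of which 9.45% rose and 48.8% fell. *Itga7*, a laminin receptor subunit gene, rose by 0.68 (SE 0.19, adjusted p = 0.0110; 0.0510 without WT 5dw replicate 3), and 1 of the 2 rows for *Itgam*, the gene of the CD11b marker used for negative sorting, rose by 1.18 (adjusted p = 0.000268) from 0.280–0.788 to 1.41–2.0 RPKM, having passed the filter only through 5dw. *Itga6* and *Itga3*, subunit genes of keratinocyte laminin receptors, fell by 1.68 (adjusted p = 0.00996) and 1.64 (adjusted p = 0.00387) on the log2 scale. In 5dw both reached 1 RPKM in WT replicate 3 only, so they passed the filter only through NS, which selects for a difference. Their place in the counts of falls, in WT and in Act, is no support. *Itga2b*, *Itga2* and *Itga9* fell by 0.66, 0.48 and 0.44, and none of these 3 was called with median-ratio scaling. The calls of *Itga2* and *Itga9* were also lost without single libraries, at an adjusted p of up to 0.157 (without WT NS replicate 2) and 0.0713 (without WT 5dw replicate 3). Of 5 other beta rows 3 were tested and 2 fell, *Itgb7* by 1.62 and *Itgb6* by 0.83, while *Itgb4* had a log2 fold change of -0.96 (adjusted p = 0.0805). The *Itgb6* call was lost with median-ratio scaling (adjusted p = 0.0969) and without WT NS replicate 2 or 3 or WT 5dw replicate 1 or 2 (adjusted p between 0.0742 and 0.110), and the gene passed the filter only through NS. In Act wounds 1 other alpha row rose and 4 fell, *Itga3* and *Itga6* among them, against 9.04% and 36.5% of all genes. Among the 4, the *Itga9* call was lost without either Act 5dw library (adjusted p = 0.101 and 0.0751) and without Act NS replicate 2 or 3. Of the beta rows *Itgb6* fell by 0.95 (adjusted p = 0.0338) and *Itgb4* by 1.37 (adjusted p = 0.0409), while *Itgb7* had a log2 fold change of -0.87 (adjusted p = 0.182). Neither call in Act held with median-ratio scaling, or without any 1 of Act NS replicates 2 and 3 and both Act 5dw replicates.

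Keratinocyte markers moved with 3 of these genes. In WT 5dw replicate 3 *Itga6* was at 3.48, *Itga3* at 1.65 and *Itgb4* at 4.80 RPKM, against at most 0.999, 0.581 and 1.62 RPKM in the other 5dw libraries, and the summed keratinocyte markers were at 1162 RPKM there against at most 349 elsewhere in 5dw. Their part in the fall of *Itga3* and *Itga6* was not tested.

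Among other matrix ligands of these integrins, 9 of 14 tested genes rose in WT wounds and 2 fell (median log2 fold change 0.80), where 9.45% of all genes rose and 48.8% fell, and in Act wounds 6 rose and 1 fell (median 0.38). Of the 9 rises in WT, the calls of *Ctgf* (0.65, adjusted p = 0.0435) and *Mfge8* (0.55, adjusted p = 0.0332) were lost without WT NS replicate 3 (adjusted p = 0.169 and 0.119) and without 5 and 3 other libraries singly, leaving 7 to 9 rises. *Tnc* (tenascin-C) went from 5.67 ± 2.75 to 425 ± 78.5 RPKM (SD, n = 3 each), a log2 fold change of 6.18 (SE 0.33, adjusted p = 6.16e-07). *Spp1* (osteopontin, a ligand of *Itgav* integrins) rose by 4.56 (SE 0.27, adjusted p = 1.01e-06) and *Col3a1*, a fibrillar collagen chain, by 1.66 (SE 0.20, adjusted p = 8.02e-05). In Act the changes were 5.20, 4.26 and 1.83. *Vtn* (vitronectin) fell by 0.92 (adjusted p = 0.00161) and *Tgfbi* by 0.62 (adjusted p = 0.0439), and neither was called with median-ratio scaling. The gene that fell in Act was *Vtn* (-0.71, adjusted p = 0.0156), again not called with median-ratio scaling (adjusted p = 0.183). Without Act 5dw replicate 1 its Act change was -0.49. The *Tgfbi* call was also lost without WT NS replicate 1 (adjusted p = 0.163) and without 5 other libraries.

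Of 6 co-receptor and fibronectin cross-linker genes 2 rose and 3 fell in WT wounds (median log2 fold change -0.32, against -0.40 for all genes), where 9.45% of all genes rose and 48.8% fell. *Sdc1* (syndecan-1) rose by 0.96 and *Plaur* (the urokinase receptor) by 0.85, whereas *Sdc4*, the syndecan that cooperates with *Itga5* and *Itgb1* at focal adhesions, fell by 1.53 (SE 0.23, adjusted p = 0.000284), *Sdc2* by 0.94 and *Tgm2* (transglutaminase) by 1.99 (adjusted p = 0.0308). *Tgm2* spanned 13.5 to 151 RPKM within WT NS. Its log2 fold change was -1.16 without WT NS replicate 3 (adjusted p = 0.122) and -2.88 without WT NS replicate 1 (adjusted p = 0.00188), and the call was also lost without WT NS replicate 2, without each WT 5dw replicate and with median-ratio scaling. The *Sdc1* call was lost without WT NS replicate 1 (adjusted p = 0.0695) and without WT 5dw replicate 3 (adjusted p = 0.0845). In Act wounds *Plaur* rose by 0.70 (adjusted p = 0.0448), and *Sdc4* and *Sdc2* fell by 1.60 (adjusted p = 0.000638) and 0.72 (adjusted p = 0.00599). The Act call of *Plaur* was lost without Act NS replicate 1 (adjusted p = 0.105), without either Act 5dw library (adjusted p = 0.0735 and 0.243) and without 4 WT libraries singly. That of *Sdc2* was lost without Act 5dw replicate 3 (adjusted p = 0.0772) and with median-ratio scaling (adjusted p = 0.124).

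Of 9 tested activators and inhibitors of integrins 1 rose and 3 fell in WT wounds, and the counts were the same in Act. The share that fell was below that of all genes in WT (48.8%) and near it in Act (36.5%), and the median log2 fold change was -0.22 in WT and -0.26 in Act, against -0.40 and -0.31 for all genes. *Tln2* (talin-2) rose by 0.96 (SE 0.16, adjusted p = 0.000668), while *Rap1b*, *Apbb1ip* and *Sharpin* fell by 0.77, 0.45 and 0.38. The *Sharpin* call was lost without each WT NS or WT 5dw library except WT NS replicate 2 (adjusted p up to 0.110). In Act, *Rap1b*, *Apbb1ip* and *Sharpin* fell by 0.63, 0.52 and 0.54, and none of the 3 was called without Act 5dw replicate 3 (adjusted p = 0.322, 0.0865 and 0.103). With median-ratio scaling 3 rose and none fell. Of 20 tested focal adhesion genes 2 rose and 7 fell in WT and likewise in Act, shares near those of all genes for rises (9.45% and 9.04%), below for falls in WT (48.8%) and near in Act (36.5%), or 9 and 4 in WT and 8 and 5 in Act with median-ratio scaling, where about equal shares of all genes were called in each direction. In Act the falls of *Bcar1* (0.59, adjusted p = 0.0487) and *Actn4* (0.64, adjusted p = 0.0170) became -0.44 and -0.40 without Act 5dw replicate 1. The *Bcar1* call was lost without Act NS replicate 2 or 3 (adjusted p = 0.104 and 0.149), WT NS replicate 3 or any WT 5dw replicate. That of *Actn4* was lost without Act NS replicate 3 (adjusted p = 0.0558). In WT the *Actn4* call (-0.49, adjusted p = 0.0270) was lost without WT NS replicate 1 or 3 or WT 5dw replicate 2 or 3 (adjusted p between 0.0546 and 0.0991). *Fblim1* (migfilin) rose by 2.54 (SE 0.24) and *Actn1* (alpha-actinin-1) by 2.41 (SE 0.18), and *Lims2*, *Tns2* and *Tns1*, which encode adaptors that link integrins to actin, fell by 2.14, 2.12 and 1.17 (adjusted p between 2.82e-05 and 0.000338). All 5 kept their direction and call with median-ratio scaling, and *Fblim1*, at 0.391 to 1.00 RPKM in NS, passed the filter only through 5dw. No gene of the 6 lists was called between Act and WT in NS or 5dw.

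**Figure D5:**
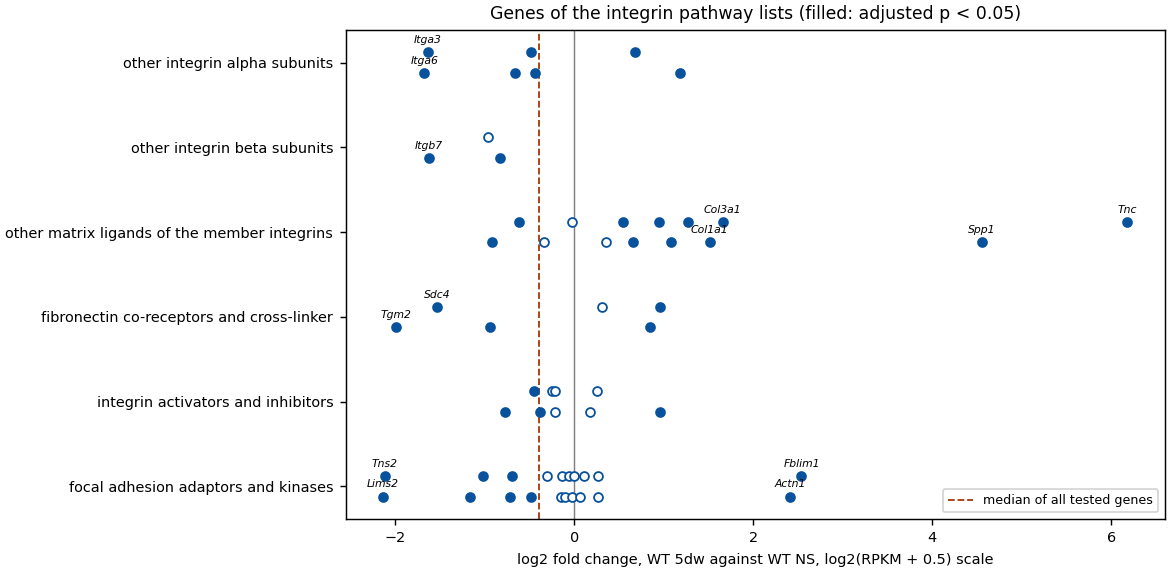
Log2 fold change between WT 5dw and WT NS (horizontal axis, log2(RPKM + 0.5) scale) of the tested genes in 6 lists of the integrin pathway (rows); filled points have an adjusted p below 0.05, the dashed line is the median of all tested genes (-0.40), and vertical offsets within a row only separate points. *Tnc* (6.18) and *Spp1* (4.56) lie farthest right, while *Lims2* (-2.14) and *Tns2* (-2.12) lie farthest left.

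The genes most like each member, by Pearson r of log2(RPKM + 0.5) over the 11 libraries, were as follows. For *Itga5* they were *Etv6*, *Plk2* and *Neu2* (r = 0.98 each), and for *Itgb1* *Rian*, *Hif1a* and *Plod2* (0.99, 0.99 and 0.98). *Itga8* had *Rnf167*, *Bmp4* and *Rundc1* (1.00 each), and *Itga11* had *Pyroxd2*, *Syde2* and *Dhx57* (0.96, 0.95 and 0.95). All these values are set mainly by the 2 tissues, which the 11 points share. Among members that did not separate by tissue, *Fn1* was most like *Fndc1* and *Pygl* (0.92 and 0.91), *Itgb5* most like *Pdgfrb* (0.95), *Itgav* most like *Taf13* (0.97), *Itgb3* most like *Sugct* (0.88) and *Itga1* most like *Crabp2* (0.84).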

How the data were processed

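RNA of 11 libraries was sequenced after poly-A enrichment as stranded 100 base reads. The authors aligned reads to GRCm38 and counted them per gene in CLC Genomics Workbench version 12, and deposited RPKM values per library. The annotation release, the strand setting and the handling of reads with several matches are not given in the sources used here, and up to 7.86% of a member's 31-base exon words (*Itgb5*) also occur in other genes. The submitters' processing notes also name edgeR, which needs counts and was not used here.

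Mapped read totals were recovered from the RPKM steps and GENCODE exon lengths (45090 of 47643 symbols matched; a read count was taken as whole within 0.03). RPKM + 0.5 was log2 transformed, genes with at least 1 RPKM in at least 2 libraries were kept (11979), and 4 group means were fitted over all 11 libraries with limma 3.58.1 in R 4.3.3 (empirical Bayes with trend, 7 residual degrees of freedom), with Benjamini-Hochberg adjustment over all genes. In tests on simulated data 200 of 11979 genes were changed. Changes of 2-fold were recovered in 74.5% (WT) and 65.0% (Act) of cases for wounding and in 72.5% (NS) and 69.0% (5dw) for genotype. In the real data 58.3% (WT) and 45.6% (Act) of genes were called with wounding, and 0.0167% (NS) and 0.0334% (5dw) with genotype. These shares differ from the simulated one, so the recovery rates need not hold for the real comparisons. Alternatives changed the pseudocount (0.1 or 1), the filter (none or 5 RPKM), the scaling (median ratio, quantile), the trend, array weights, the groups fitted and the libraries left out. Limma-voom on recovered reads was added after the data had been seen, and the fit without replicate 1 of both NS groups was likewise not planned. Groups followed the labels.

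Same-numbered libraries deviated together between WT NS and WT 5dw (r = 0.188, 0.120 and 0.109 across genes) and between WT NS and Act NS (0.554, 0.423 and 0.334). Act 5dw replicate 1 had r = -0.124, 0.0187 and -0.0777 with replicate 1 of WT NS, Act NS and WT 5dw. With WT 5dw replicate 2 it had r = 0.313. For Act 5dw replicate 3 the same-numbered values were 0.158, 0.143 and 0.189. The paper states that RNA was pooled across sorting sessions, so whether the numbers mark pairs is not known. Comparisons with Act 5dw share only 2 numbers. In addition to the members, all other integrin subunit genes that passed the filter were named, together with up to 3 rising and 3 falling genes of each pathway list with the largest change in WT wounds, and the 3 genes most correlated with each member. The members and lists were chosen with earlier results of these data known.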

Additional observations from a re-analysis of the deposited data

How the results depend on the processing

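The direction and call of *Itgb1* and *Itga8* in both genotypes, and of *Itga5* in WT, held in every alternative in which the gene was tested (*Itga8* did not pass a filter of 5 RPKM). Because *Itga8* passed the main filter only through NS, its held call is no support. Members called numbered 3 to 5 in WT and 2 to 4 in Act, except for 5 in Act with median-ratio scaling and with limma-voom. The replicate block changed no call of a member (4 in WT, 3 in Act, 0 in the genotype comparisons). The Act call of *Itga5* and the WT call of *Itga11* were lost, and *Fn1*, *Itga1* and *Itga11* in Act gained, as given beside each gene. *Itga1* in WT gained a call with quantile normalization and limma-voom (0.50 and 0.52), and *Itga4* in both without a filter on low values (-0.24, adjusted p = 0.00139, in WT and -0.27, adjusted p = 0.00210, in Act). *Itgav* in WT gained one without replicate 1 of both NS groups (-0.29, adjusted p = 0.0452, limma), a fit that was not planned. Where only scaling differs, the shift is that of the whole library; the cause of the other changes was not tested.

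The directions that turned were of log2 fold changes not called on RPKM as deposited, among them those of *Itga1* and *Itgav* in WT, each called in the alternatives above. The median log2 fold change of all tested genes in WT was -0.0043 with median-ratio scaling and -0.0059 with limma-voom. Both fits were thus centred alike, and limma-voom is no independent support for the turned directions. With median-ratio scaling and limma-voom, respectively, WT wounding came to 0.25 and 0.25 for *Fn1*, 0.30 and 0.31 for *Itgav*, 0.40 and 0.42 for *Itgb3* and 0.39 and 0.40 for *Itgb5*. Act wounding came to 0.27 and 0.29 for *Itgav* and to 0.084 and 0.081 for *Itgb5*, the genotype difference in NS to 0.045 and 0.049 for *Itga8*, 0.13 and 0.13 for *Itgav* and 0.031 and 0.027 for *Itgb1*, and the interaction of *Itgav* to -0.026 and -0.027. With quantile normalization WT wounding was 0.19 for *Itgav*, 0.26 for *Itgb3* and 0.040 for *Itgb5*, Act wounding 0.20 for *Itgav*, and the NS genotype difference 0.019 for *Itga8* and 0.12 for *Itgav*. With array weights *Itgb3* had -0.18 in Act wounding and -0.13 in the interaction, *Itga11* 0.11 and *Itgav* 0.011 in the NS genotype comparison, and *Itgb5* -0.0040 between Act 5dw and WT 5dw, where the replicate block gave -0.12. Without replicate 1 of both NS groups, WT wounding was -0.041 for *Itga1* and 0.19 for *Itgb5*, and Act wounding -0.088 for *Itgb3*.

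Leaving out 1 library at a time, WT wounding ranged from -0.041 to 0.12 for *Itga1*, -0.11 to 0.034 for *Itgb3* and -0.29 to 0.19 for *Itgb5*, and Act wounding from -0.21 to 0.052 for *Itgav* and -0.10 to 0.61 for *Itgb3*. The NS genotype difference ranged from -0.024 to 0.14 (*Itga1*), -0.16 to 0.072 (*Itga8*), -0.16 to 0.13 (*Itgav*), -0.20 to 0.46 (*Itgb3*) and -0.023 to 0.46 (*Itgb5*). The 5dw genotype difference ranged from -0.22 to 0.25 (*Itga5*), -0.019 to 0.14 (*Itgav*) and -0.063 to 0.066 (*Itgb5*), and the interaction from -0.49 to 0.017 (*Itga5*), -0.071 to 0.22 (*Itgav*), -0.063 to 0.65 (*Itgb3*) and -0.46 to 0.023 (*Itgb5*).

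Over all genes, 3771 (WT) and 3104 (Act) were called with a filter of 5 RPKM, where fewer genes were tested, and 3505 in Act without Act 5dw replicate 3; leaving out 1 library gave 3505 to 5860 there, and leaving out replicate 1 of both NS groups gave 6242. Called genes between Act NS and WT NS numbered 9 without a filter, 1 with a filter of 5 RPKM, 4 without trend, 4 with array weights, 0 with only the compared groups, 1 with limma-voom, 11 without replicate 1 of both NS groups and 0 to 7 when 1 library was left out. Between Act 5dw and WT 5dw they numbered 18 without a filter, 2 with median-ratio scaling, 2 with quantile normalization, 1 with limma-voom and 0 to 4 when 1 library was left out. The interaction gave 10 without a filter, 1 with array weights, 2 without replicate 1 of both NS groups and 0 to 2 when 1 library was left out.

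With 2 Act 5dw libraries, intervals of comparisons with that group were wider. *Itga4* rested on few reads and was tested across genes only without the filter.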
